A study of Mus musculus with 2 samples.

Results

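A group of 10 genes of the p53 pathway and of cell-cycle arrest was followed through the single-cell libraries of osteal macrophages (Omacs), the cells sorted here from bone surfaces. They were taken by name from the deposited gene list: Cdkn1a, Trp53, Mdm2, Ccng1, Gadd45a, Gadd45b, Btg2, Btg1, Cdkn2d and Cdkn1b. They are 10 of 32285 genes counted, of which 18802 had at least 1 molecule. Female BALB/c mice were ovariectomized (OVX) or sham-operated at 10 weeks of age, and cells were taken 4 weeks after surgery from 20 animals per condition, pooled. The labels name no transgene or drug in either group. Cells were sorted with CD11b, F4/80 and CD68, given an antibody tag, hashtag 1 for OVX and hashtag 2 for sham, and sequenced as 1 pooled 10x Genomics 3′ library, in which reads are collapsed to molecules by a unique molecular identifier (UMI). The labels state 1037 OVX and 1084 sham cells loaded. The counts hold 2349 barcodes, of which 1059 were assigned to OVX and 981 to sham, while 78 passed the cutoff for both hashtags and 231 for neither. The comparisons ask whether the arrest genes move with Cdkn1a from one cell stage or cell type to another, and whether their levels differ between the hashtag conditions.

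The p53 protein, encoded by Trp53, is a transcription factor that is held low by the ubiquitin ligase Mdm2, itself a p53 target, and that accumulates on DNA damage and other stress. Its target Cdkn1a encodes p21, which inhibits cyclin-dependent kinases and can hold a cell in arrest or, when kept up, in senescence. Cell-cycle exit also happens without damage: in the neutrophil lineage the last divisions are followed by permanent exit, and CDK inhibitors such as p27 (Cdkn1b) and p19 (Cdkn2d) and the antiproliferative proteins Btg1 and Btg2 act in such differentiation as well as in stress.

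The promoters are shown because the genes share a pathway by name, and the DNA letters next to their starts show where a p53 half-site lies close by. Sites elsewhere in a gene, and other spellings of the site, were not searched, so a gene without a match here may still carry one. In the 250 bases before each RefSeq gene start of GRCm38.p6, both strands were searched for the p53 half-site (2 of which make a full p53 response element). All 10 genes had a window, 11 windows in all since Cdkn1a has a pair of starts. A half-site was present in 6 of the 10 genes (6 of their 11 windows), and in 7.12% of 32536 distinct windows of the same length over all genes. Each is printed on the strand of the gene with 10 bases on either side, and the capitals mark the half-site.
Cdkn1a, chr17:29090918-29090947, plus strand: tggccttcagGAACATGTCTtgacatgttc
Cdkn1a, chr17:29090896-29090925, plus strand: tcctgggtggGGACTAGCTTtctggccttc
Trp53, chr11:69580274-69580303, plus strand: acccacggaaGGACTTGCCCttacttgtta
Mdm2, chr10:117710925-117710954, minus strand: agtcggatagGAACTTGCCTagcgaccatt
Ccng1, chr11:40755452-40755481, minus strand: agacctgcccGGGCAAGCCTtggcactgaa
Gadd45a, chr6:67037428-67037457, minus strand: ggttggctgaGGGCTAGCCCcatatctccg
Cdkn2d, chr9:21291292-21291321, minus strand: ggcctggggcGGGCTTGCCTcgcccactag
The Cdkn1a half-sites begin 51 and 73 bases before the upstream start, and the window of its downstream start holds 0. That of Cdkn2d overlaps a GC box (GGGCGG, present in 33% of windows). Btg1 and Btg2 are the 2 members with a cAMP-response half-site (TGACG on either strand), which 17.9% of all windows hold. The capitals mark it below, and for Btg2 they mark 8 bases that hold it on both strands, overlapping.
Btg2, chr1:134079304-134079331, minus strand: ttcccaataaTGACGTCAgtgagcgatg
Btg1, chr10:96616804-96616828, plus strand: aagcagattaCGTCAgctcctccct
Btg1, chr10:96616888-96616912, plus strand: aatctgcctgCGTCAcaatggtgcg
A match of letters describes the window and is not a bound site. Genes with a p53 half-site stood on both sides of the maturation order, with Cdkn1a, Mdm2 and Gadd45a higher in CPM at its end and Trp53, Ccng1 and Cdkn2d lower. For late against cycling cells, Trp53 and Ccng1 were within 1.5-fold once the cycling cluster was limited to its granule-gene cells (described below).

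The deposited label calls the cells macrophages. Clustering gave 6 groups, and 5 of them held few macrophage markers: C1qa had at most 0.287 CPM (UMIs of the gene scaled to 1000000 UMIs) in any cluster, Cd163 had no UMI, and the 7 macrophage markers summed to between 7.32 and 27.3 CPM in clusters A, B, C, the cycling cluster and the stromal cluster. Clusters A (618 cells), B (606 cells) and C (469 cells) and the cycling cluster (384 cells) were neutrophil-like, with all 7 neutrophil markers and S100a8 from 80530 to 120000 CPM. Names were given by marker genes. A was the cluster highest in Jaml plus Ccl4, B in the stefin genes Stfa2 plus Stfa2l1, and C the remaining one highest in Retnlg. The stromal, cycling and Arg1 and Msr1 clusters were those highest in Dcn plus Prg4, Mki67 plus Top2a, and Arg1 plus Msr1. By fold over other cells, Gm12840 was first in A and Retnla in B. The cycling cluster led in Hist1h1b, Top2a, Mki67, Ltf and Camp. It was not uniform: a finer clustering separated 281 cells rich in secondary-granule genes from 38 deep cells with Cd74 and Elane (median 16630 UMIs), 54 barcodes with a median of 39.8% mitochondrial UMIs, and 11 others. A stromal-like cluster (210 cells, all 8 stromal markers, led by Gng11, Saa2 and Prrx1) and a cluster of 62 cells led by Ppbp, Ms4a8a, Pf4 and Arg1, with 178.7 CPM of macrophage markers and no C1qa or C1qb, made up the rest. The last is called the Arg1 and Msr1 cluster. Dcn, a stromal gene, was at 16510 CPM in the stromal-like cluster and at 74.0 to 124.6 CPM elsewhere. Over all other cells together it was at 0.553% of its stromal level. The part of carried-over stromal RNA in the levels of the 10 genes outside that cluster was not tested. None of the 10 genes was among the 2000 variable genes that built the clusters.

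In CPM, Cdkn1a was highest in the stromal-like cells and next in cluster A. Its level was 783 CPM (95% interval 760 to 807, from 4285 UMIs) in the stromal-like cluster and 497 (466 to 529) in cluster A. It was 308 (264 to 356) in the Arg1 and Msr1 cluster, 229.8 (210 to 252, from 471 UMIs) in C, 204 (190 to 219.8) in the cycling cluster and 183 (170 to 196) in B. The first 3 intervals stood apart from each other, while those of C and the cycling cluster overlapped, as did those of the cycling cluster and B. The stromal-like cells, 210 of 2349, held 58.1% of all Cdkn1a UMIs. They were deep, with a median of 19996.5 UMIs, and held 5473824 of the 17681092 UMIs of all genes. All intervals are exact 95% intervals and cover counting error only, not differences between cells or animals. There was 1 pool per condition and no test of conditions across animals was possible.

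Trp53 and Ccng1 were mostly a feature of the stromal-like cells, unlike Mdm2. Trp53 was at 127 CPM (118 to 137) there, against 34.4 in the Arg1 and Msr1 cluster, 26.4 in the cycling cluster, 17.9 in A, 12.6 in B and 5.85 (3.03 to 10.2, from 12 UMIs) in C. Of its 907 UMIs, 76.7% lay in stromal-like cells, which held 5473824 of the 17681092 UMIs of all genes. Ccng1, which encodes cyclin G1, a p53 target that takes part in p53 feedback, followed the same order at the top with 118 CPM (109 to 128) in the stromal-like cells, 46.4 in the Arg1 and Msr1 cluster and 35.6 in the cycling cluster, and then 21.4 in A, 20 in C and 16.9 in B, where the intervals overlapped. Mdm2 differed least between clusters, by a factor of 1.82 from the highest to the lowest. Its levels were 149.6 CPM (133 to 168) in A, 149 (139 to 159.5) in the stromal-like cells, 113 in B, 112 in the Arg1 and Msr1 cluster, 110 in C and 82.0 (72.8 to 92.1) in the cycling cluster.

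The growth arrest and DNA damage genes split. Gadd45a was at 211 CPM (192 to 233) in A, 178 in B, 162 in the stromal-like cells and 157 in C, with overlap between each pair of neighbours in that order. It was lower in the cycling cluster (84.3, 75.0 to 94.5) and in the Arg1 and Msr1 cluster (30.9, 18.3 to 48.9). Gadd45b, in contrast, was highest in the stromal-like cells at 658 CPM (637 to 680), then 310 in A, 249 in C, 203 in B and 173 in the cycling cluster, each interval apart from the next. In the Arg1 and Msr1 cluster it was at 44.7 CPM (29.2 to 65.5, from 26 UMIs).

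Btg1, whose product slows proliferation and works with the mRNA-deadenylating machinery, was the most abundant of the members in UMIs. Its levels were 4273 CPM (4182 to 4365) in A, 2419 in the Arg1 and Msr1 cluster, 2246 in C, 2131 in B, 826 in the stromal-like cells and 616 (591 to 643) in the cycling cluster. Its relative Btg2, an early p53 target, kept the order of the neutrophil-like cells, with 681 CPM (645 to 718) in A, 576 in C, 395 in B and 258 in the cycling cluster, but was lower in the stromal-like cells (161) and lowest in the Arg1 and Msr1 cluster (80.8).

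In CPM, the CDK inhibitors Cdkn1b and Cdkn2d were highest in neutrophil-like cells, Cdkn1b in cluster A and Cdkn2d in the cycling cluster. Each was lowest among those cells where the other was highest. Cdkn1b stood at 198 CPM (178 to 218) in A, 159 in C, 128.5 in B and 79.2 (70.1 to 89.1) in the cycling cluster, each interval apart from the next, against 29.2 in the Arg1 and Msr1 cluster and 17.2 in the stromal-like cells. Cdkn2d was at 143 CPM (131 to 157) in the cycling cluster, 96.1 in C, 77.2 in B and 23.5 (17.2 to 31.3) in A. In the Arg1 and Msr1 cluster it was at 18.9 CPM, an interval that overlaps that of A, and in the stromal-like cells it had 23 UMIs, 4.20 CPM (2.66 to 6.31). By CPM, of the 10 genes, 5 were highest in cluster A, 4 in the stromal-like cluster and 1, Cdkn2d, in the cycling cluster.

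**Figure D1:**
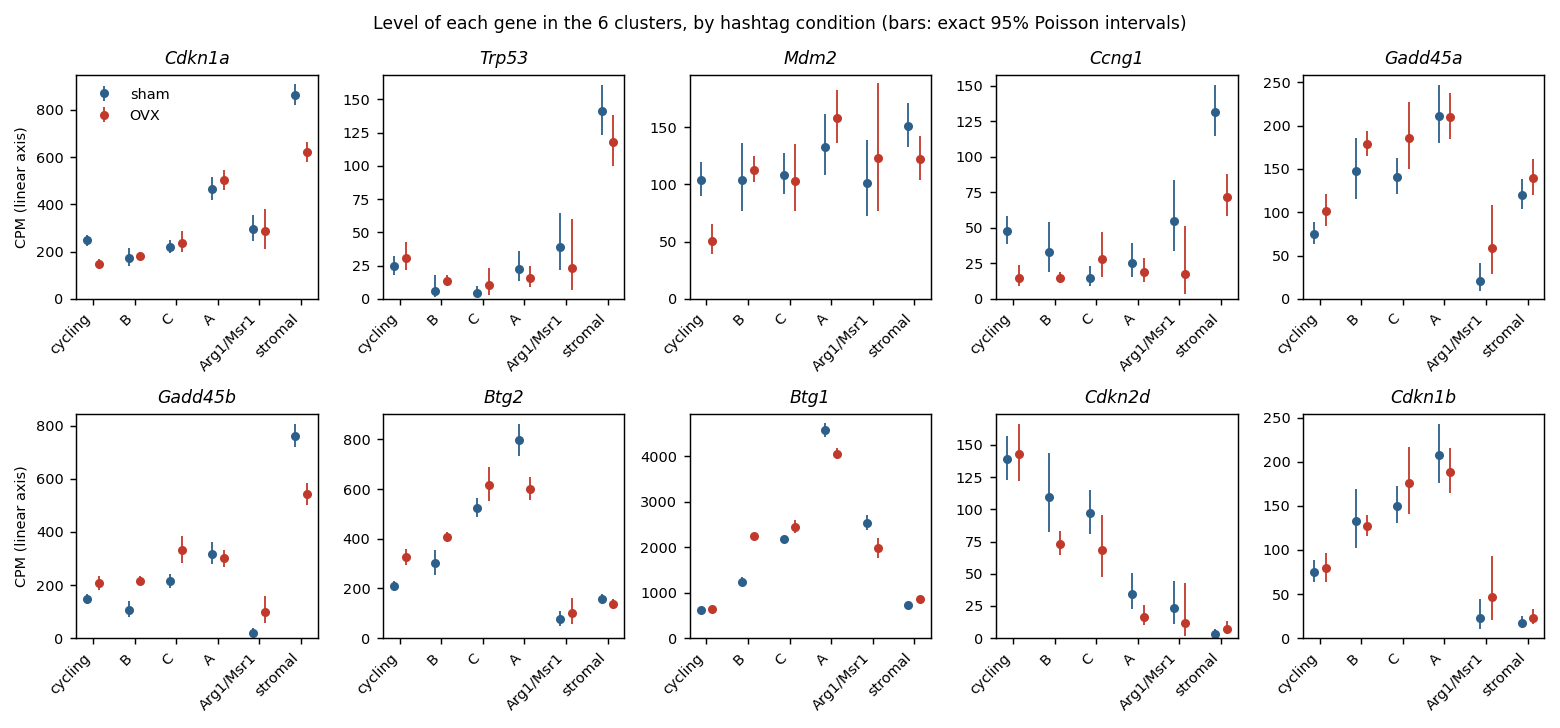
CPM of each gene (linear vertical axis) in the 6 clusters (horizontal axis), with OVX in red and sham in blue, each 1 pool, and bars for exact 95% Poisson intervals. Cdkn1a, Trp53, Ccng1 and Gadd45b peak in the stromal-like cluster, Btg1 and Cdkn1b in cluster A, and Cdkn2d in the cycling cluster, in both conditions, while Btg2 is highest in A in sham (796 CPM) and stands at 617 CPM in C and 600.1 in A in OVX.

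CPM is a share of a cell's RNA, and cells of cluster A were shallow, with a median of 2646 UMIs against 4047 in C, 5455 in B and 7374 in the cycling cluster. Counted per cell, Cdkn1a was at 1.57 UMIs in A (1.48 to 1.68), 1.00 in C, 1.25 in B and 1.85 in the cycling cluster (1.72 to 2.00), so cells of A held a larger share of Cdkn1a but not more molecules than cycling cells. Btg1 was at 13.5 UMIs per cell in A, 9.81 in C, 14.5 in B and 5.596 in the cycling cluster, higher in the late clusters on either scale. Cdkn2d was at 0.0744 per cell in A and 1.30 in the cycling cluster. Per cell, A was not above the cycling cluster for Cdkn1b (0.626 and 0.719) or Btg2 (2.16 and 2.34). The same held for Gadd45a (0.670 and 0.766), Mdm2 (0.474 and 0.745) and Gadd45b (0.982 and 1.57). None of the 10 genes was highest in A by this count. Whether fewer UMIs reflect less RNA per cell or poorer capture cannot be told apart.

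Set against clusters A, B and C together, the stromal-like cells had higher Trp53, Ccng1, Cdkn1a and Gadd45b and lower Btg1, Btg2, Cdkn1b and Cdkn2d. Among the 10 genes, 4 were at least 1.5-fold higher, where 60.3% of all 11290 genes compared were, and 4 at least 1.5-fold lower, where 24.2% were. The ratio was 10.4 (8.46 to 13.04) for Trp53, 6.28 (5.26 to 7.54) for Ccng1, 2.90 (2.75 to 3.05) for Cdkn1a and 2.74 (2.59 to 2.89) for Gadd45b. The lower ones were Cdkn2d at a ratio of 0.0609 (0.0383 to 0.0922), Cdkn1b at 0.112, Btg1 at 0.309 and Btg2 at 0.316. Mdm2 was at 1.23 and Gadd45a at 0.897. The median over all genes was a log2 difference of 1.23. Relative to that median Cdkn1a (log2 1.53) and Gadd45b (1.45) were slightly higher, Trp53 (3.39) and Ccng1 (2.65) further above, and Mdm2 (0.30) and Gadd45a (-0.16) below it.

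The Arg1 and Msr1 cluster against the same 3 clusters had 2 members past 1.5-fold higher (51% of all genes were) and 5 lower (20.9%). Trp53 (ratio 2.82, from 20 UMIs) and Ccng1 (2.47, from 27 UMIs) were the higher ones. Btg2 (0.158), Gadd45a (0.171), Gadd45b (0.186), Cdkn1b (0.191) and Cdkn2d (0.274, from 11 UMIs) were the lower ones. Cdkn1a, at 1.14 (0.972 to 1.33), and Btg1, at 0.904, lay near the late neutrophil-like cells. With every cell thinned to 1000 UMIs the Trp53 value was log2 -0.02. Only 1 of 61 thinned cells of this cluster then held a Trp53 UMI, too few to show a difference or its absence.

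In CPM, late clusters A, B and C were higher than the cycling cluster in Btg1, Gadd45a, Btg2 and Cdkn1b and lower in Trp53, Cdkn2d and Ccng1. Btg1 was 4.34-fold higher (4.15 to 4.54), Gadd45a 2.14-fold (1.89 to 2.44), Btg2 1.98-fold (1.84 to 2.13) and Cdkn1b 1.93-fold (1.69 to 2.21), making 4 members past 1.5-fold higher where 17.2% of all genes were. Another 3 were past it lower, where 43.8% of all genes were: Trp53 at 0.461, Cdkn2d at 0.481 and Ccng1 at 0.529. Cdkn1a (1.32, 1.21 to 1.44), Gadd45b (1.39) and Mdm2 (1.48) were below the fold. When every cell was thinned to 1000 UMIs, Ccng1 turned to a log2 difference of 1.60. Only 2 of 352 thinned cells of the cycling cluster then held a Ccng1 UMI. Cdkn2d turned to 0.81 with Leiden clustering and 0.32 with 8 clusters. In both, 1 cluster was highest in cycling genes and in Arg1 and Msr1. When the cycling cluster was limited to its 281 granule-gene cells, a choice made after seeing the data, 6 members were past 1.5-fold higher and 1 lower. The share of all genes past the fold was not counted for these cells, so these counts have no background to be read against. Cdkn1a and Mdm2 then joined the higher ones, at log2 differences of 0.60 and 0.86. Trp53 (log2 -0.33) and Ccng1 (-0.54) came back within 1.5-fold, while Cdkn2d was at -1.30. The 38 deep cells left out held Trp53 at 61.3 CPM (45.7 to 80.6) and Ccng1 at 62.5 CPM, against 15.3 and 27.4 CPM in the 281.

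The same cells were placed in order by diffusion pseudotime, rooted at the cell richest in Mki67 and Top2a, with the 10 genes and all listed pathway genes left out of the genes that made the order, and divided into 8 bins of equal size. Camp went from 4350 CPM in the first bin to 23.4 in the last, and Jaml from 19.6 to 527. Cdkn1a was level over the first 5 bins, at 204, 213, 176, 183 and 208 CPM, and then reached 315 (bin 6), 519 (bin 7) and 533 (bin 8). Its last bin was 2.62 times its first (2.28 to 3.01). Btg1 was higher in each bin than in the one before, from 534.5 CPM through 1242, 1769, 2279, 2597, 3469 and 4456 to 4550 CPM, a ratio of 8.51 (7.99 to 9.08). The intervals of its last 2 bins overlapped. Btg1 thus differed between bins over which Cdkn1a was level.

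Btg2 (last bin to first, 3.53), Gadd45a (2.94), Cdkn1b (2.90), Gadd45b (2.40) and Mdm2 (1.87) also ended higher in CPM, so that 7 of the 10 genes were past 1.5-fold higher, where 25.4% of 7808 genes were. The 3 lower ones (45.8% of genes were) had different courses. Cdkn2d went from 132 and 144 CPM in bins 1 and 2 to 101, 81.5, 61.4, 28.5, 25.8 and 11.7 CPM, a ratio of 0.0885 (0.0353 to 0.184). Trp53 was at 33.4 CPM in the first bin and between 7.92 and 19.0 CPM in all others, with no order among them. Ccng1 was at 38.2 CPM first and at 10.03 CPM last, from 6 UMIs, a ratio of 0.263 (0.0944 to 0.592). In the cycling cluster, the 38 deep cells held 51 Trp53 and 52 Ccng1 UMIs, and the 281 granule-gene cells held 38 and 68. How many of the deep cells lay in the first bin was not counted. The last bin also held 34 barcodes of the cycling cluster and had a median of 2097 UMIs. With barcodes kept only above 500 genes and below 10% mitochondrial UMIs, the last bin was at 586.5 CPM for Cdkn1a, 4866 for Btg1, 16.9 for Cdkn2d and 18.4 for Ccng1. The 239 filtered barcodes of the first bin held 2689914 UMIs of all genes, and the 238 of the last held 651317. Btg1 went from 1388 UMIs in the first to 3169 in the last. The others higher in CPM had fewer UMIs last: Cdkn1a 549 and 382, Btg2 591 and 510, Gadd45b 402 and 235, Mdm2 236 and 98, Gadd45a 204 and 155, Cdkn1b 179 and 136.

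**Figure D2:**
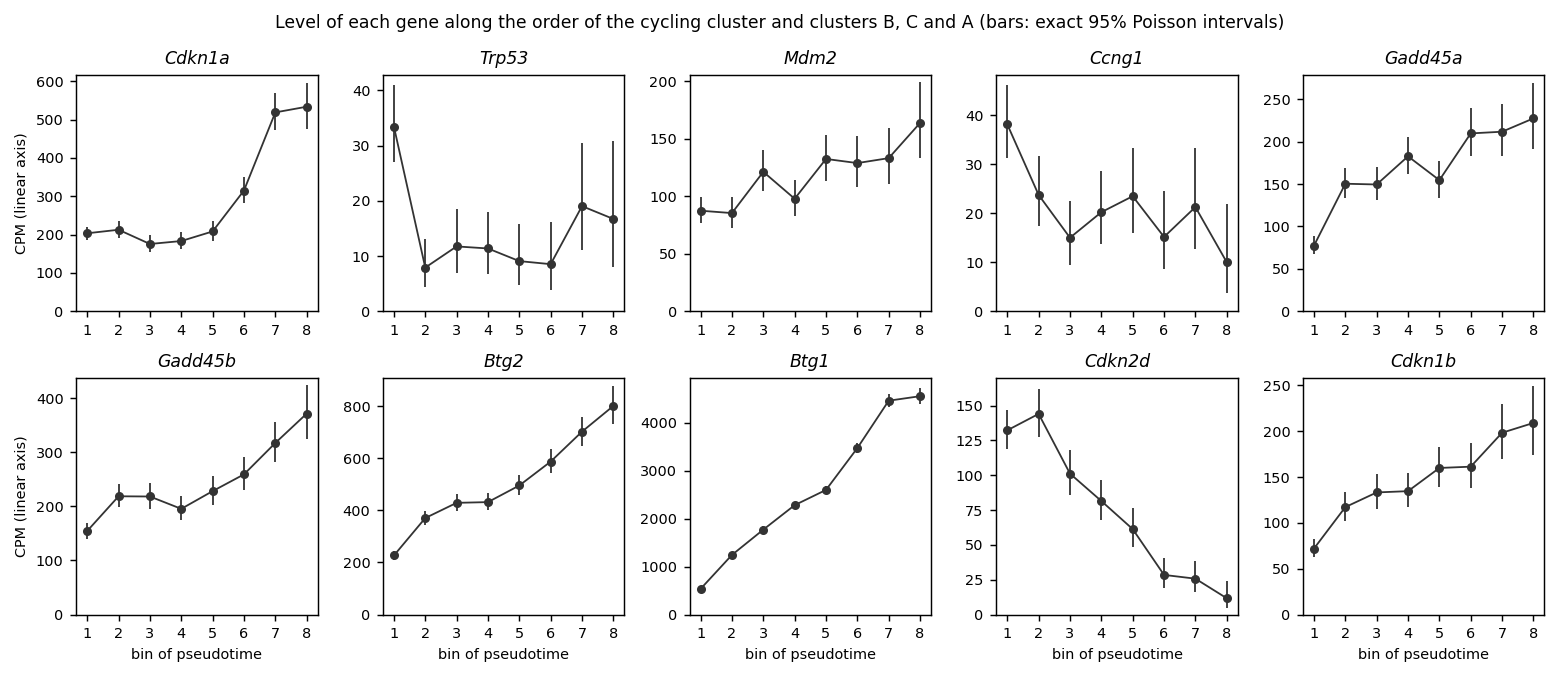
CPM of each gene (linear vertical axis) in 8 equal bins of pseudotime (horizontal axis) from the cycling cluster toward cluster A, with exact 95% Poisson intervals as bars. Btg1, Btg2 and Cdkn1b are higher in late bins, Cdkn1a stands above its early level from bin 6 (315 CPM) on, and Cdkn2d goes from 144 CPM in bin 2 to 11.7 CPM in bin 8.

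Among the late clusters, cluster A against C gave Cdkn1a at 2.16 times (1.94 to 2.42), Btg1 at 1.90 (1.83 to 1.97) and Trp53 at 3.05 (1.55 to 6.46, from 35 and 12 UMIs), 3 members past 1.5-fold higher where 25.2% of genes were. Cdkn2d, at 0.244 (0.173 to 0.338), was the 1 member lower, where 11.2% were. Mdm2 was at 1.36, Gadd45a at 1.35, Gadd45b and Cdkn1b at 1.24, Btg2 at 1.18 and Ccng1 at 1.07. Over all genes the median log2 difference was 0.22. Cluster B against C had only Trp53 past the fold, at 2.15 (1.13 to 4.43) from 52 and 12 UMIs, against 16.9% of genes higher and 9.1% lower. Cdkn1a was at 0.795 (0.708 to 0.894), Btg2 at 0.686 and Cdkn2d at 0.803, while Btg1 was at 0.949 and Mdm2 at 1.03.

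Likeness to Cdkn1a was taken as Pearson's r of log2(CPM + 10) over 12 groups, the 6 clusters in each condition. The groups share 1 library and its sequencing depth, and r is a description. Mdm2 (r = 0.74), Trp53 (0.72), Ccng1 (0.67) and Gadd45b (0.52) were the 4 members at 0.5 or more, where 34.7% of 9411 genes were. Gadd45a (0.12) and Btg1 (0.06) were near 0, and Btg2 (-0.19), Cdkn1b (-0.43) and Cdkn2d (-0.87) were below it. Without the stromal-like cells (10 groups), Mdm2 (0.77) and Btg1 (0.73) were at 0.5 or more, where 16.1% of 7666 genes were, and Trp53, Ccng1 and Gadd45b went to 0.22, 0.15 and 0.12. Cdkn2d stayed opposite to Cdkn1a at -0.75, and ranked 7597 of 7666. Between other members, Btg2 and Cdkn1b were the closest pair over the 12 groups (0.91), followed by Gadd45a and Btg2 (0.83) and by Trp53 and Ccng1 (0.80), with Trp53 and Cdkn1b opposite (-0.84). Over all genes the 5 most like Cdkn1a were Eif5 (0.94), Morf4l1 (0.94), Sbds (0.93), Dnajb1 (0.92) and Napa (0.92), and without the stromal-like cells Atg12 (0.93), Morc3 (0.92), Morf4l1 (0.92), Dnajb1 (0.91) and Cox8a (0.91).

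**Figure D3:**
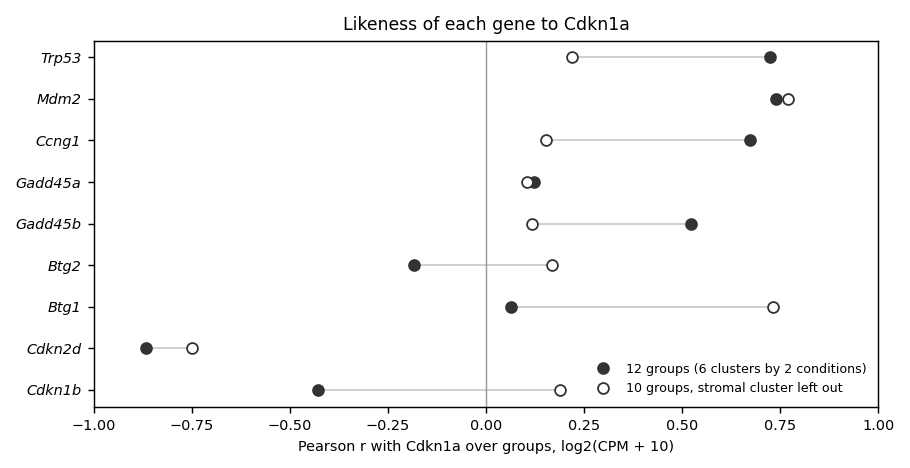
Pearson r of each gene with Cdkn1a (horizontal axis) over 12 groups of cells (filled) and over the 10 groups left without the stromal-like cluster (open). Mdm2 stays near 0.75 and Cdkn2d far below 0 in both, while Trp53, Ccng1 and Gadd45b drop and Btg1 moves from 0.06 to 0.73.

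Inside a cluster, cells with a Cdkn1a UMI were set against cells without one, after thinning every cell to 1000 UMIs so that depth did not decide detection. Cluster A had 208 cells with and 349 without, B 96 and 461, C 92 and 361, the cycling cluster 52 and 300, the stromal-like cluster 96 and 102. Over these and the Arg1 and Msr1 cluster, with Cdkn1a left out, 8 pairs of gene and cluster were past 1.5-fold higher and 2 lower. Counting Cdkn1a itself, the members compared were 7 in A and 8 each in B, C and the cycling cluster. They were 7 in the stromal-like cluster and 2 in the Arg1 and Msr1 cluster. In the same splits 10.8% to 23.6% of all genes were past the fold higher and 11.6% to 19% lower. No test of the counts was made. Among neutrophil-like cells Gadd45a was past the fold in 3 clusters. Its ratio was 2.86 (1.97 to 4.10) in B, where 21.9% of all genes were past the fold, 1.76 (1.22 to 2.53) in A, where 10.8% were, and 1.5 (0.916 to 2.39) in C, where 16% were. Btg1 was at 2.53 (1.95 to 3.26) in the cycling cluster, where 23.6% of genes were past the fold, and at 1.58 (1.40 to 1.79) in B, 1.32 (1.23 to 1.43) in A and 1.27 (1.11 to 1.44) in C. Restricted to the 281 granule-gene cells, the cycling value was a log2 ratio of 0.71, and thinned to 500 UMIs it turned to -0.65.

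In the stromal-like cells Mdm2 was at 240 CPM in cells with a Cdkn1a UMI and 88.2 in cells without, a ratio of 2.72 (1.21 to 6.67, from 23 and 9 UMIs), where 12% of genes were past the fold higher. Gadd45a was at 0.556 (0.242 to 1.21) there, the opposite side from clusters A and B, where 12.2% were lower. Mdm2 was at 1.73 (0.876 to 3.27) in C, and Gadd45b at 1.62 (1.02 to 2.51) and Cdkn2d at 0.412 (0.0810 to 1.31, from 3 and 35 UMIs) in B, where 12.4% were lower. Trp53 reached 20 UMIs only in the stromal-like cells, with a ratio of 0.987 (0.427 to 2.26), so a difference in the p53 transcript was not detectable at this depth. Thinned to 500 UMIs, the Gadd45a value in A and the Mdm2 value in the stromal-like cells turned to log2 -0.03 and -0.49.

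**Figure D4:**
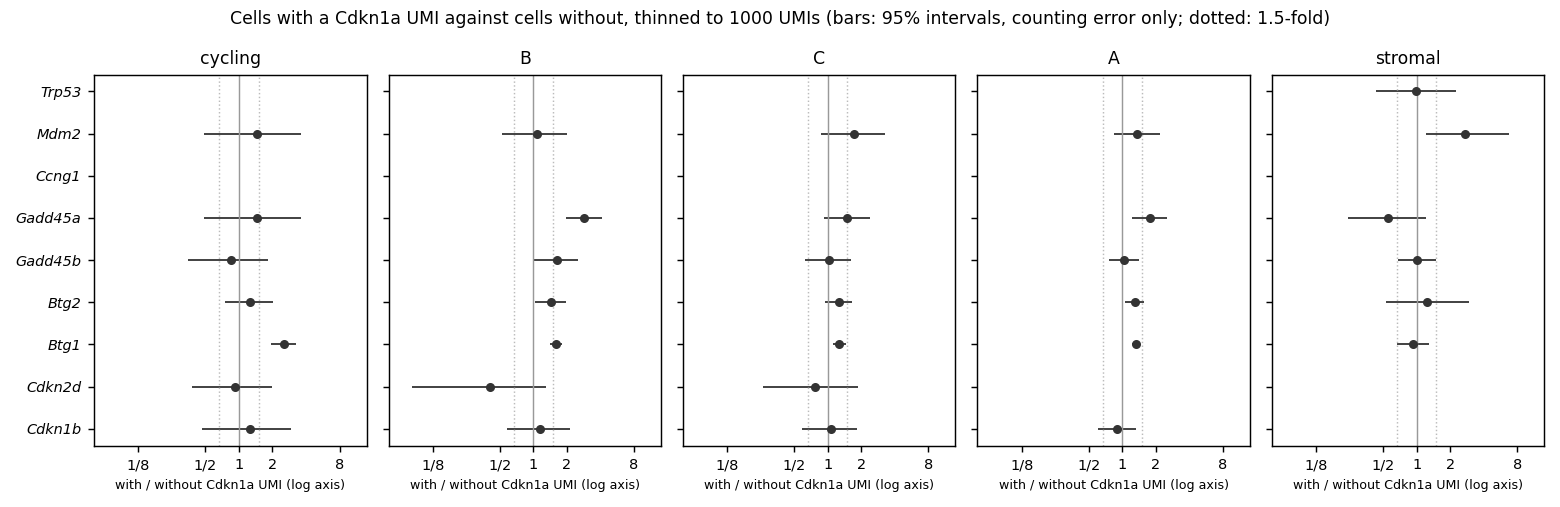
Ratio of CPM in cells with a Cdkn1a UMI to cells without (horizontal log axis) for the other genes in 5 clusters, after thinning to 1000 UMIs. Bars are 95% intervals for counting error, dotted lines mark 1.5-fold, and genes under 20 UMIs are left out. Gadd45a in B (2.86) and Btg1 in the cycling cluster (2.53) lie farthest right among neutrophil-like cells.

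Within the cycling cluster, 48 thinned cells had an Mki67 or Top2a UMI and 304 had none. Cdkn1b was at 271 CPM against 85.5, a ratio of 3.17 (1.49 to 6.39, from 13 and 26 UMIs). Cdkn1a was at 1.89 (0.959 to 3.49), Mdm2 and Gadd45a at 1.58 and Gadd45b at 1.52, all with intervals that reach below 1, and Btg1 was at 0.510 (0.315 to 0.789). This made 5 members past the fold higher, where 22.4% of 2075 genes were, and 1 lower, where 28.5% were. These ratios do not separate the kinds of cell in the cluster. Mki67 had 0 UMIs in the 54 mitochondrial-rich barcodes and in the 11 others, where Btg1 was at 1550 and 2107 CPM. Btg1 was at 595 CPM in the 281 granule-gene cells. In the 38 deep cells Mki67 was at 444 CPM and Btg1 at 428. The Cdkn1a value reversed under other clusterings, to log2 -1.78 with Leiden and -1.81 with 8 clusters. In both, the cluster richest in cycling genes was also the one richest in Arg1 and Msr1, and held 140 and 101 cells.

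Between the conditions, over all assigned cells, 1 member was past 1.5-fold. Ccng1 was at 25.8 CPM in OVX (201 UMIs) and 58.3 in sham (377 UMIs), a ratio of 0.442 (0.370 to 0.526), where 25.6% of 11316 genes were past the fold lower and 6.59% higher. Cdkn1a was at 302 CPM in OVX and 417 in sham, 0.725 (0.685 to 0.766). Trp53 was at 33.8 and 48.4 CPM, 0.699 (0.591 to 0.826). Mdm2 was at 111 and 119.6 CPM (0.929), Gadd45b at 286 and 322 (0.889) and Cdkn2d at 63.0 and 75.4 (0.835). Gadd45a was at 163 and 118 CPM (1.38, 1.26 to 1.51), Btg1 at 2040 and 1592 (1.28), Cdkn1b at 113 and 93.2 (1.22) and Btg2 at 385 and 329 (1.17). No member was past the fold higher in OVX. The sums depend on how deep cells weigh: the log2 difference of Cdkn1a was -0.47 as given, -0.16 with equal weight per cell and 0.07 with every cell thinned to 1000 UMIs, and no member was past the fold with equal weight per cell.

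The cell make-up of the pools differed. Stromal-like cells were 3.59% of OVX and 5.50% of sham cells, cluster B 43.5% and 11.4%, cluster C 9.35% and 31.7%, and the cycling cluster 12.2% and 19.5%. Of the stromal-like cells, 112 of 210 (53.3%, 46.3 to 60.2%) were above neither hashtag cutoff and entered no condition. With each cluster given the same weight in both conditions, Cdkn1a was at 0.965 (0.891 to 1.04), Trp53 at 1.04, Mdm2 at 0.999, Cdkn1b at 0.999 and Btg2 at 1.02. Ccng1 remained at 0.620 (0.477 to 0.806), the 1 member past the fold, where 9.87% of genes were lower and 12.8% higher, and it was within the fold with the filter on cells. Gadd45b was at 1.23 and Cdkn2d at 0.750, and Gadd45a and Btg1 were within the fold. Without the stromal-like cells, a choice made after seeing the data, Cdkn1a was at 239 CPM in OVX and 270.2 in sham, 0.884 (0.821 to 0.952), Trp53 at 0.953, Ccng1 at 0.486 (0.378 to 0.623), Gadd45a at 1.43 (1.29 to 1.58) and Gadd45b at 1.32 (1.22 to 1.44). These values keep the unequal make-up of the other clusters. Inside clusters the Gadd45a ratio was 0.991 (0.808 to 1.22) in A, 1.22 (0.951 to 1.58) in B and 1.32 (1.02 to 1.70) in C. Gadd45a was at 102 CPM in OVX and 75.2 in sham in the cycling cluster, and at 140 and 120 in the stromal-like cells.

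Inside the late clusters, the summed CPM of Cdkn1a differed between the pools by less than its counting error. It was at 501 CPM in OVX and 466 in sham in A (ratio 1.08, 0.940 to 1.23), 182 and 174 in B (1.04, 0.831 to 1.33) and 238 and 220.5 in C (1.08, 0.865 to 1.34). In the cycling cluster Cdkn1a was at 147 CPM in OVX and 247 in sham (0.595, 0.497 to 0.709), and in the stromal-like cells at 621 and 863 (0.720, 0.659 to 0.785), both without overlap of the intervals of the levels. These intervals do not cover the spread between cells: 1 of 54 sham stromal-like cells held 188 of their 1384 Cdkn1a UMIs. After thinning, 44.7% (28.6 to 61.7%) of OVX and 48.15% (34.3 to 62.2%) of sham stromal-like cells held a Cdkn1a UMI. In the cycling cluster 8.33% (4.07 to 14.8%) and 18.6% (13.2 to 25.2%) did. Mdm2 followed Cdkn1a in the cycling cluster at 50.9 and 104 CPM (0.491, 0.362 to 0.658), as did Ccng1 at 15.03 and 47.6 (0.316, 0.179 to 0.527), while Btg2 was at 325 and 208.5 (1.56, 1.35 to 1.80). In the cycling cluster 19.5% of genes were past the fold lower and 7.55% higher. In the 281 granule-gene cells, where the share of all genes was not counted, the same 4 genes were past the fold. Cdkn1a was at 137 CPM (114 to 164) in 93 OVX cells and 208 (183 to 235) in 141 sham cells. Among the 38 deep cells Cdkn1a was at 140 in OVX and 331 in sham, in 15 and 20 cells, while the mitochondrial-rich barcodes had 16 UMIs in OVX and 11 in sham. The deep cells of the pools were unlike each other, with Cd74 at 2962 CPM in OVX and 160.1 in sham and Elane at 0 and 99.8. The granule-gene cells had a median of 1.44% mitochondrial UMIs in OVX and 0.586% in sham, and Top2a at 231 and 128 CPM. The part of these differences in the Cdkn1a values was not tested. Ccng1 depended on the deep cells, which held 47 of its 90 sham UMIs in the cycling cluster, and its log2 ratio was -1.66 with them and -1.03 in the granule-gene cells. The difference between this cluster and the late clusters was not tested.

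Cluster B, the largest cluster of OVX cells, had 3 members past the fold higher in OVX, where 20.9% of genes were, and 1 lower, where 16.7% were. Gadd45b was at 217 CPM in OVX and 106 in sham (2.05, 1.54 to 2.78) and Btg1 at 2238 and 1243 (1.80). Trp53 was at 2.17 from 47 and 3 UMIs, with an interval from 0.697 to 10.9, and Ccng1 at 14.6 and 33.1 CPM (0.441, 0.247 to 0.828). Sham cells of B had a median of 2074.5 UMIs against 6108 in OVX. The Trp53 value turned to log2 -0.40 with every cell thinned to 1000 UMIs, when 4 of 443 OVX and 1 of 84 sham cells held a Trp53 UMI. The part of depth in the other values was not tested. In cluster C Gadd45b was at 331 and 215 CPM (1.54, 1.27 to 1.87) and Ccng1 at 1.91 (0.892 to 3.97), past the fold where 11.6% of genes were higher and 13.8% lower. That Ccng1 value turned to log2 -0.47 with Leiden clustering and -0.96 with 1000 variable genes. In cluster A only Cdkn2d was past it, at 16.5 and 34.6 CPM (0.478, 0.250 to 0.897, from 19 and 26 UMIs), where 9.88% of genes were lower and 20.1% higher. Btg2 in A was at 600.1 CPM in OVX and 796 in sham (0.754, 0.675 to 0.843). In all, 11 pairs of gene and cluster over A, B, C and the cycling cluster were past 1.5-fold, 6 higher and 5 lower in OVX. The members compared were 10 each in A, B and the cycling cluster and 9 in C. In the stromal-like cells Ccng1 was at 71.9 and 132 CPM (0.546, 0.423 to 0.700), where 11.3% of genes were lower and 8.75% higher. In the Arg1 and Msr1 cluster (16 OVX and 41 sham cells) Gadd45b had 17 UMIs in OVX and 7 in sham (5.49, 2.16 to 15.7), where 15.1% were higher, and Ccng1 had 3 and 21 (0.323, 0.0617 to 1.08), where 19.7% were lower.

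**Figure D5:**
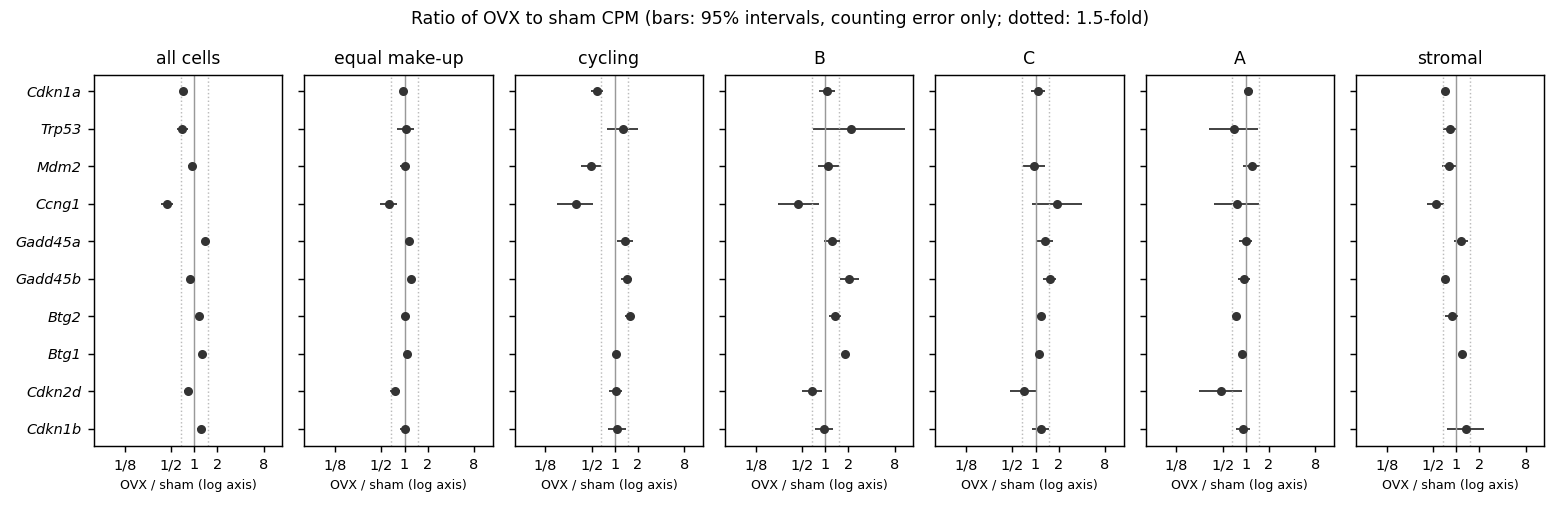
Ratio of OVX to sham CPM of each gene (horizontal log axis) over all cells, at equal cluster make-up and inside 5 clusters. Bars are 95% intervals for counting error and dotted lines mark 1.5-fold. Ccng1 lies left of 1 in all panels but C, and Cdkn1a lies left of it over all cells (0.725) and in the cycling (0.595) and stromal-like (0.720) cells, but close to 1 in A, B, C and at equal make-up (0.965).

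Of 28 further p53 targets, 25 had enough UMIs between stromal-like and late neutrophil-like cells, and 16 were past 1.5-fold higher and 5 lower, where 60.3% and 24.2% of all genes were, with a median log2 difference of 1.77 against 1.23 over all genes. Phlda3 (75.3 against 0.246 CPM), an inhibitor of Akt signalling, the nuclease gene Aen (106 against 1.23) and the RNA-binding protein gene Zmat3 (40.4 against 0.860) were the highest. The death receptor Fas (12.1 against 182 CPM), Trp53inp1 (18.5 against 188) and Plk3 (12.97 against 99.3) were the lowest. From the cycling cluster to the late clusters, Fas (ratio 7.95) and Trp53inp1 (5.38) were the targets highest in late cells, and Rps27l (0.197) and Bax (0.421) the lowest, with 4 higher and 8 lower of 22, where 17.2% of all genes were higher and 43.8% lower. Cluster A against C had 5 of 14 higher and 0 lower, where 25.2% and 11.2% of all genes were, led by Fas at 309 and 100 CPM.

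All 12 proliferation genes and 11 of 12 cyclins and CDKs were past 1.5-fold lower in the late clusters than in the cycling one, where 43.8% of all genes were, with Top2a at 4.30 and 217 CPM and Cdk1 at 0.737 and 41.9 CPM. The cycling cluster was chosen as the one highest in Mki67 plus Top2a, which are on the proliferation list. Their direction follows from that choice, and genes of the same process tend to follow them, so these counts are not a separate result. Of the other growth arrest, Btg, Tob and cyclin G genes, Ccng2 (1.93) and Tob1 (1.60) were higher in late cells. In the stromal-like cells Ccng2 was at 2.92 CPM against 76.6 in the late clusters. Between conditions over all cells, the p53 targets gave 1 higher (Fas, 158 CPM in OVX and 46.6 in sham, 3.39, 2.99 to 3.86) and 9 lower of 25, among them Zmat3 (0.319) and Phlda3 (0.355), where 6.59% of all genes were higher and 25.6% lower. At equal cluster make-up the list gave 5 higher and 3 lower, where 12.8% and 9.87% were. Its medians were log2 -0.21 over all cells and 0.06 at equal make-up, beside -0.25 and -0.02 over all genes.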

How the data were processed

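The authors aligned reads to mm10 with Cell Ranger (6.0.0 in the file header, 6.0.1 in the labels) and deposited whole-number UMI counts per gene and hashtag for the barcodes called as cells, without normalization. The hashtag counts used here were those held with the gene counts, and nothing else was read for the hashtag library sample. Barcodes were given to OVX or sham with HTODemux (Seurat 5.3.0, R 4.3.3, quantile 0.99). Louvain clustering (scanpy 1.11.5, igraph 0.11.9) used counts scaled to 10000, 2000 variable genes, 30 components and 15 neighbors, at the lowest resolution giving 6 clusters (0.3). A gene's level is its UMIs summed over cells and scaled to 1000000 (CPM). Intervals are exact at 95% (Poisson, and conditional binomial for ratios). A gene was compared at 20 UMIs or more in both groups together. Past 1.5-fold is a rule of size. No p-value was computed, since each condition is 1 pool. Thinning drew 1000 UMIs per cell with a fixed seed and left out 171 shallower cells (48 OVX, 85 sham). Scrublet marked 1 doublet and no cell was removed. Barcodes held 500 to 141565 UMIs. Promoter sequences are from RefSeq (GRCm38.p6). No other gene was counted on the same strand over a member. The calculations were tested on simulated data. Genes named are the 10 members, the 3 highest and 3 lowest of each pathway list at 100 UMIs or more, the 5 genes most like Cdkn1a, and cluster markers and leading genes. Members and lists were chosen with earlier results of these data known. Alternatives were other totals, equal weight per cell, thinning, a cell filter, other minimums of UMIs, Leiden clustering (leidenalg 0.10.2), 1000 variable genes, 30 neighbors, 8 clusters, another hashtag rule (at least 80% of at least 10 hashtag UMIs), 5 bins, and, chosen after seeing the data, the cycling cluster limited to its granule-gene cells, leaving out the cell richest in the gene, filtered cells in the maturation order, and no stromal-like cells.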

Additional observations from a re-analysis of the deposited data

Results flagged for a closer look

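Ccng1 lay on opposite sides of 1.5-fold between OVX and sham in different clusters. Its ratio of OVX to sham CPM was 1.91 in cluster C, and 0.441 in cluster B, 0.316 in the cycling cluster, 0.546 in the stromal-like cluster and 0.323 in the Arg1 and Msr1 cluster. Each condition is 1 pool, the value in C rests on 14 and 20 UMIs with an interval from 0.892 to 3.97, and the difference between clusters was not tested. Cdkn1a was also high in barcodes that entered no comparison of conditions: the 231 barcodes above neither hashtag cutoff held it at 720.6 CPM (690.3 to 752), against 302 in OVX and 417 in sham cells, and 93.5% of those 2128 UMIs (92.4 to 94.5%) lay in stromal-like cells. Stromal-like cells held 2410232 of the 2953139 UMIs of all genes in these barcodes.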

How the results depend on the processing

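Of 1726 values of single genes under other settings, 1394 moved by less than their interval, 314 moved further and 18 reversed. The 1394 include 166 values with no minimum of UMIs and 166 with a minimum of 50. Those could not move, since the minimum decides which genes are compared and changes no ratio. Another 114 came from leaving out the cell richest in the gene, which moved no value further. Settings differed: thinned to 1000 UMIs, 58 values moved by less than their interval, 58 moved further and 3 reversed. With Leiden clustering these were 79, 51 and 3. Members past 1.5-fold numbered 7 with Leiden (4 as reported) for A against C, and for B against C (1 as reported) 2 with equal weight per cell, 3 with Leiden and 2 with 1000 variable genes. For OVX against sham over all cells (1 as reported) they numbered 2 when genes above 1% of UMIs were left out of totals, 0 with equal weight per cell and 3 with the other hashtag rule, Cdkn1a among them. At equal cluster make-up (1 as reported) they numbered 0 with equal weight per cell, 0 with the cell filter and 0 with the cycling cluster limited to granule-gene cells. For Mki67 or Top2a (6 as reported) they numbered 3 at a minimum of 50 UMIs, 2 with Leiden, 3 with 1000 variable genes, 2 with 8 clusters and 3 thinned to 500 UMIs. For cells with a Cdkn1a UMI (10 as reported) they numbered 22 with no minimum, 6 with a minimum of 50 and 16 with 1000 variable genes. A value counts as reversed only if it was past 1.5-fold as reported and its log2 ratio changed sign. Changes of sign within the fold are not listed, such as Cdkn1a for OVX against sham over all cells (-0.465 as reported, 0.07 thinned). Reversed log2 ratios were, for late against cycling cells, Ccng1 thinned (1.60) and Cdkn2d with Leiden (0.81) and 8 clusters (0.32), and for the Arg1 and Msr1 cluster Trp53 thinned (-0.0174). For OVX against sham they were Cdkn2d in A with the cell filter (0.34), Trp53 in B thinned (-0.40) and with 1000 variable genes (-0.10), and Ccng1 in C with the cell filter (-0.0162), Leiden (-0.47) and 1000 variable genes (-0.96). Thinned to 500 UMIs they were, with Cdkn1a, Gadd45a in A (-0.0345) and the stromal-like cells (0.10), Btg1 in the cycling cluster (-0.65) and Mdm2 in the stromal-like cells (-0.49), and, with Mki67 or Top2a, Mdm2 (-0.36) and Gadd45b (-0.03). Cdkn1a with Mki67 or Top2a reversed with Leiden (-1.78) and 8 clusters (-1.81). The cause was not tested, and the thinned Trp53 and Ccng1 values rest on the few cells with a UMI given above. With Leiden and with 8 clusters the cluster highest in Arg1 and Msr1 was also the cycling one, so these gave no value for it. No paired analysis was possible because each condition is 1 pool in 1 library.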

Other observations

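Immediate early and stress genes, which answer quickly to signals and to cell handling, differed between the comparisons in which Cdkn1a was higher. Of 18, 9 were past 1.5-fold higher and 1 lower in the late clusters than in the cycling one, where 17.2% and 43.8% of all genes were, with Dusp1 at a ratio of 3.68. In cluster A against C, 6 of 17 were higher, where 25.2% of all genes were, among them Egr1 (2.07), Ier3 (2.03) and Jun (1.80), and the 2 lower ones were the heat shock genes Hspa1a (0.217) and Hspa1b (0.478). In cells with a Cdkn1a UMI, 7 of 13 were higher and 1 lower in cluster A, where 10.8% of genes were higher, and 8 of 13 were higher and 0 lower in cluster B, where 21.9% were. In cluster C 2 of 14 were higher and 1 lower, where 16% and 13.7% were, and in the stromal-like cells 1 of 10 was higher and 2 lower, where 12% and 12.2% were. In the stromal-like against the late clusters 6 of 18 were higher and 8 lower, where 60.3% and 24.2% of all genes were. No test of these counts was made, and the part of cell handling was not tested. Between OVX and sham over all cells 2 of 18 were higher and 3 lower, where 6.59% and 25.6% of all genes were, with Fosb at 2.40, Klf2 at 1.91, Hspa1a at 0.194 and Hspa1b at 0.220.

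Among 12 p53 regulators, 9 had enough UMIs in late against cycling cells and 0 were past 1.5-fold higher and 4 lower, where 17.2% and 43.8% of all genes were. Over all cells 1 of 10 was higher and 2 lower in OVX than in sham, where 6.59% and 25.6% of all genes were. Among 7 other CDK inhibitors and pocket proteins, 2 of 4 were lower in late cells and 1 of 5 in OVX, against the same shares of all genes. Of the 12 proliferation genes, 6 were lower in OVX over all cells, and at equal cluster make-up, where 12.8% and 9.87% of all genes were, 4 were higher and 2 lower.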
